A study of Homo sapiens with 46 samples.

Results

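ASO-1570 is an antisense oligonucleotide directed at TRA2B, and its effect at 50 nM on MDA-MB-231, a human breast cancer cell line, was measured by RNA sequencing. The 6 libraries described here were chosen by their labels: 3 of MDA-MB-231 cells transfected with 50 nM ASO-1570 and 3 of MDA-MB-231 cells transfected with 50 nM of a control oligonucleotide, out of 46 libraries in the series. RNA of every cell line group was taken 48 hours after a lipid transfection. Nothing in the labels says whether the 3 libraries of a group came from separate cultures. The p-values therefore measure only the spread between libraries, which may be technical. For genes this spread was estimated over 12 libraries, of MDA-MB-231 and U87MG at 50 nM. For splicing events it came from the 6 libraries described here, unless a 12-library fit is named. Other groups are used only for comparison: U87MG glioblastoma cells with 50 nM ASO-1570 or the control oligonucleotide, MDA-MB-231 cells with 200 nM of either, and MDA-MB-231 cells with 10 nM of either TRA2B siRNA or control siRNA, each with 3 libraries.

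TRA2B is a splicing regulator related to the SR proteins. It binds GA-rich sequences in exons and usually favours their inclusion. The TRA2B gene itself contains a poison exon, meaning an optional exon whose inclusion brings in a stop codon early, and TRA2B and its paralog TRA2A are known to regulate such exons in their own and in each other's transcripts. Transcripts with a poison exon are commonly removed by nonsense-mediated decay, the pathway that degrades messages with an early stop.

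The 6 libraries held 86.2 to 112.8 M counts. Mitochondrial genes took 3.05%, 3.16% and 2.83% of them in ASO-1570 libraries, against 2.13%, 2.71% and 2.17% in control libraries, with no overlap. Levels are CPM, counts scaled to library size and not to gene length. The cell type field of these samples names a glioblastoma, against their cell line and tissue labels. Epithelial breast markers summed to 1547 to 1832 CPM in ASO-1570 libraries and to 1433 to 1567 CPM in control libraries, against 6.89 to 11.1 CPM in the 12-library table's U87MG samples. Glial markers were low in both lines, at 13.0 to 23.1 CPM in ASO-1570 and 24.4 to 28.2 CPM in control MDA-MB-231 libraries and 12.5 to 35.8 CPM in U87MG libraries, so the libraries were taken as the breast cancer line that their names give.

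The stretch of the poison exon that is annotated as coding, with the stop codon that ends it in capitals, is shown because ASO-1570 is directed at this transcript. It is the first 81 of the exon's 276 bases, chr3:185931772-185931852 on the minus strand (GRCh38, GENCODE 29), written 5′ to 3′:

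TRA2B poison exon: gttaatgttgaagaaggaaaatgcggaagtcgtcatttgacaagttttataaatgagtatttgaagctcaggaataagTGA

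In MDA-MB-231 cells TRA2B mRNA fell and TRA2A mRNA rose with 50 nM ASO-1570, and the poison exon was included more in each ASO-1570 library than in any control library. TRA2B (ENSG00000136527.18, chromosome 3, 185915906 to 185938136) stood at 119, 122 and 147 CPM in ASO-1570 libraries, against 215, 225 and 218 CPM in control libraries. The groups did not overlap, and ASO-1570 replicate 3 was the nearest to the controls (log2 change -0.76, SE 0.07, edgeR adjusted p = 3.23e-05). In bulk RNA, fewer cells holding a transcript and less of it per cell cannot be told apart. TRA2A (ENSG00000164548.11, chromosome 7, 23504780 to 23532041) stood at 163, 154 and 148 CPM in ASO-1570 libraries, against 100, 99.4 and 98.1 CPM in control libraries (log2 change 0.64, SE 0.05, edgeR adjusted p = 1.16e-05).

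The share of transcripts that include an exon is given as percent spliced in (PSI), a fraction from 0 to 1. For the poison exon, chr3:185931577-185931852, the PSI was 0.578, 0.490 and 0.377 in ASO-1570 libraries, against 0.305, 0.254 and 0.250 in control libraries. All 3 ASO-1570 values lay above all 3 control values, but they differed among themselves by nearly as much as the groups did. The mean difference of 0.212 (SE 0.0536) was not called in the fit over all tested events (limma adjusted p = 0.232), and the exact two-sided permutation p was 0.1, the smallest that 3 against 3 libraries can give. The longest tested cassette exon of TRA2A, of 312 bases, chr7:23522121-23522432, had a PSI of 0.124, 0.111 and 0.110 in ASO-1570 libraries and of 0.208, 0.203 and 0.192 in control libraries, a difference of -0.086 that was not called (limma adjusted p = 0.165). This TRA2A exon averaged 0.066 with ASO-1570 and 0.104 with the control at 200 nM. Its means were 0.183 and 0.346 in U87MG cells at 50 nM. With TRA2B siRNA its mean was 0.0393, against 0.188 with control siRNA.

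**Figure D1:**
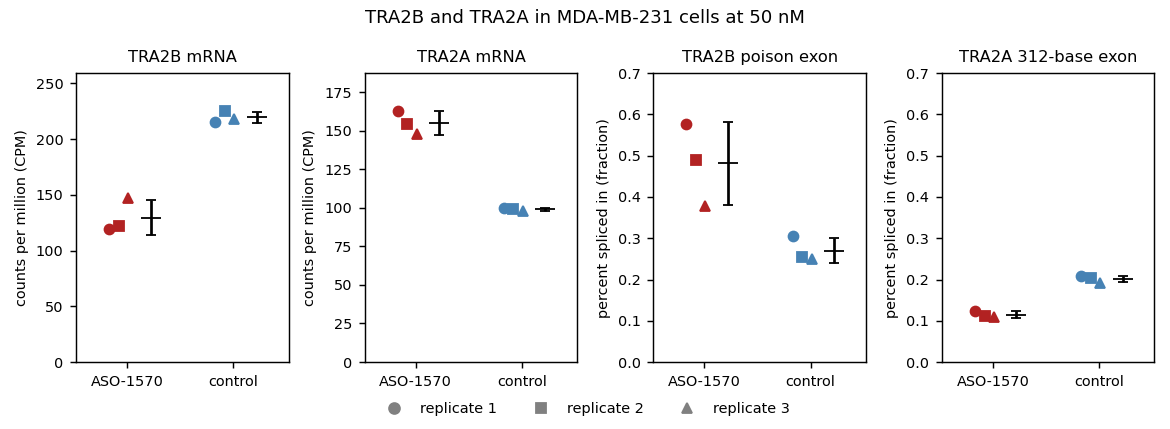
Levels of TRA2B and TRA2A mRNA (CPM) and PSI of the TRA2B poison exon and the 312-base TRA2A exon in the 3 ASO-1570 and 3 control libraries of MDA-MB-231 at 50 nM. Symbols mark the replicate and bars the mean with its SD. In every panel the groups do not overlap, and ASO-1570 replicate 3 is nearest to the controls for TRA2B mRNA and for the poison exon.

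Across all genes, 2431 rose (10.1% of the 23989 tested) and 3159 fell (13.2%) with ASO-1570 in MDA-MB-231 cells, and 903 of these 5590 called genes (3.76% of all tested) differed by at least 2-fold. A gene was called when its edgeR adjusted p over all genes was below 0.05. The ASO-1570 libraries were not equally far from the controls: replicate 3 was the nearest of the 3 to the control mean for 65.5% of the called genes, and replicate 1 the farthest for 58.1%. Without ASO-1570 replicate 2 the count of called genes was 3696. Rising genes numbered 1620 without ASO-1570 replicate 1, 1476 without ASO-1570 replicate 2, 1575 without control replicate 2 and 1595 without control replicate 3.

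The largest changes were ranked among called genes with a mean of at least 3 on the log2 CPM scale and non-overlapping groups. Over all 23989 tested genes, 9879 (41.2%) had non-overlapping groups. The 12 largest falls included a secreted cytokine, a long noncoding RNA and an enzyme of nucleotide synthesis. IL11, a cytokine of the IL6 family, stood at 5.26, 4.86 and 5.63 CPM in ASO-1570 libraries, against 25.9, 24.1 and 24.1 CPM in control libraries (log2 change -2.23, SE 0.19, edgeR adjusted p = 2.11e-05). The 3 libraries of each group were close together, and the level was 4.70-fold lower with ASO-1570. NORAD, a noncoding RNA that binds Pumilio proteins, stood at 210, 212 and 272 CPM with ASO-1570, against 762, 717 and 747 CPM with the control (log2 change -1.68, SE 0.12, edgeR adjusted p = 7.06e-06). TYMS, thymidylate synthase, had 56.1, 97.1 and 121 CPM in ASO-1570 libraries and 288, 277 and 280 CPM in control libraries (log2 change -1.62, SE 0.25). It spread over a more than 2-fold range with ASO-1570 while its control values agreed closely, and the opposite-strand gene ENOSF1 overlaps it.

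IGFBP1, a binding protein of insulin-like growth factors, fell by 1.53 on the log2 scale (SE 0.19), with 5.48, 7.32 and 8.29 CPM in ASO-1570 libraries against 15.9, 21.5 and 23.6 CPM in control libraries. AIDA fell by 1.38 (SE 0.08) and EPDR1 by 1.37 (SE 0.11), and for both the ASO-1570 libraries lay within 60.3 to 78.7 and 18.6 to 26.3 CPM, against 168 to 178 and 54.5 to 55.8 CPM in control libraries. CTDSPL, a small phosphatase, fell by 1.36 (SE 0.16) and GLG1, a Golgi glycoprotein, by 1.30 (SE 0.16). DMBT1 fell by 1.39 (SE 0.21), TMEM154 by 1.36 (SE 0.15) and TDRP by 1.31 (SE 0.10). For these 5 genes too no ASO-1570 library reached a control library, as the rule that named them required. The largest fall, of ENSG00000258790 (log2 change -2.74, SE 0.83, edgeR adjusted p = 0.0333), rested on uneven controls of 55.6, 8.68 and 39.1 CPM against 6.14, 4.86 and 4.47 CPM with ASO-1570. That gene overlaps KIAA0391 and PSMA6 on its own strand, and it was not called with 5 of the 6 libraries left out in turn or without the filter on low counts.

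The largest rises included a receptor, a transcriptional coactivator and epithelial genes. OXTR, the oxytocin receptor, stood at 26.1, 34.5 and 32.1 CPM in ASO-1570 libraries, against 10.1, 9.70 and 9.07 CPM in control libraries (log2 change 1.68, SE 0.15, CAV3 overlaps on the other strand, edgeR adjusted p = 2.8e-05). PPARGC1A, a coactivator of mitochondrial biogenesis, had 18.7, 18.5 and 14.1 CPM with ASO-1570 and 6.64, 5.35 and 5.76 CPM with the control (log2 change 1.53, SE 0.15). ELF3, an epithelial transcription factor, rose by 1.42 (SE 0.28), and MUC1, a cell surface mucin, by 1.16 (SE 0.19). Both were tight within groups, with 15.3 to 16.9 and 47.2 to 49.1 CPM in ASO-1570 libraries against 5.73 to 6.32 and 18.6 to 23.4 CPM in control libraries.

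VGLL3, a cofactor of TEAD transcription factors, rose by 1.35 (SE 0.07), with 33.1, 36.9 and 31.1 CPM in ASO-1570 libraries against 13.5, 13.1 and 13.1 CPM in control libraries. SAA1, an acute-phase protein, was uneven among ASO-1570 libraries, at 38.1, 16.4 and 11.7 CPM against 9, 8.63 and 10.4 CPM in control libraries (log2 change 1.24, SE 0.35, edgeR adjusted p = 0.0255). It was not called in the 6 MDA-MB-231 libraries alone or with 4 of the 6 libraries left out in turn. PLEKHS1 rose by 1.29 (SE 0.30; not called without ASO-1570 replicate 1), GPRC5B by 1.12 (SE 0.16) and ZBED10P by 1.10 (SE 0.17). The rises of THBS1-IT1 (1.31, SE 0.13) and PRADX (1.25, SE 0.25) are uncertain, since THBS1 and CTSD share their loci and the strand used in counting is not stated.

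**Figure D2:**
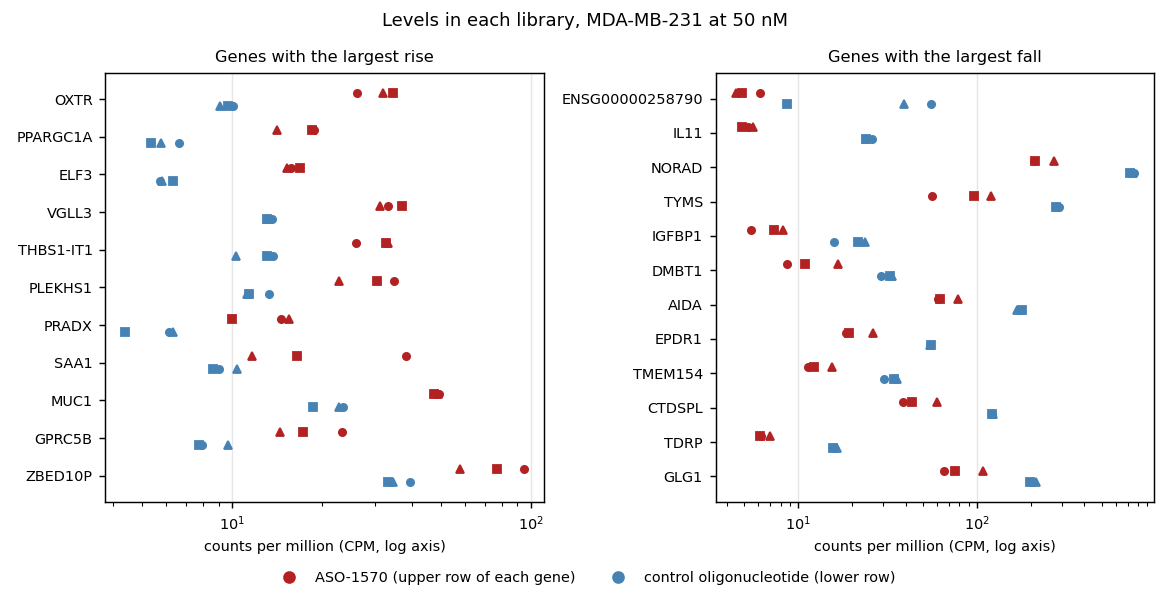
Level in each library (CPM, log axis) of 11 of the 12 genes with the largest rise (left) and the 12 with the largest fall (right) in MDA-MB-231 at 50 nM, ASO-1570 in the upper row of each gene and the control oligonucleotide in the lower row. The rows do not overlap for any of the genes drawn, a condition of the rule that named them, and SAA1 and ENSG00000258790 show the widest scatter within a group.

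Genes of cell division were lower throughout. Counts for this and every later list are to be read beside 10.1% of all tested genes rising and 13.2% falling. Of 41 tested genes of mitosis and the spindle, 41 fell and 0 rose (median log2 change -0.50, against 0.01 over all genes tested). FOXM1, a transcription factor of mitotic genes, stood at 141, 143 and 148 CPM in ASO-1570 libraries, against 193, 187 and 185 CPM in control libraries (log2 change -0.39, SE 0.04, edgeR adjusted p = 9.68e-05). MAD2L1, a spindle checkpoint protein, fell by 0.59 (SE 0.07), the mitotic kinase AURKB by 0.75 (SE 0.10), and ECT2, which directs cytokinesis, by 0.47 (SE 0.07). The mitotic genes summed to 5237 to 6513 CPM with ASO-1570 and to 8126 to 8707 CPM with the control, with no overlap. With 1 library left out in turn 30 to 41 of them fell.

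Replication and repair genes moved the same way. Of 38 genes of S phase and DNA replication, 27 fell and 0 rose (median -0.36), among them MCM7, a subunit of the replicative helicase, at 194, 187 and 189 CPM in ASO-1570 libraries against 244, 249 and 240 CPM in control libraries (log2 change -0.36, SE 0.03). The licensing factor CDC6 fell by 0.41 (SE 0.05) and the clamp loader subunit RFC4 by 0.44 (SE 0.05). Of 23 DNA repair genes 18 fell and 0 rose (median -0.29). FANCI, of the Fanconi anaemia pathway, had 50.6, 54.7 and 68.3 CPM with ASO-1570 against 120, 116 and 110 CPM with the control (log2 change -0.998, SE 0.10), and XRCC2, of homologous recombination, fell by 0.77 (SE 0.06). RAD54L fell by 0.54 (SE 0.08) and the helicase BLM by 0.53 (SE 0.08). Among 16 replication-dependent histone genes, whose transcripts mostly lack poly(A) tails, H4C3 fell by 0.48 (SE 0.12) and no other was called. With 1 library left out 0 to 2 of these histone genes fell.

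Genes of the endoplasmic reticulum and secretory path were also lower. Of 18 ER chaperone and quality control genes, 15 fell and 0 rose (median -0.50). HSPA5, the main ER chaperone, stood at 1174, 1259 and 1334 CPM in ASO-1570 libraries, against 1832, 2147 and 2204 CPM in control libraries (log2 change -0.71, SE 0.08, edgeR adjusted p = 0.000117). EDEM1, which directs misfolded glycoproteins to degradation, fell by 1.28 (SE 0.09), HYOU1 by 0.64 (SE 0.07) and calnexin, CANX, by 0.58 (SE 0.06). Of 24 Golgi and trafficking genes 11 fell and 0 rose, with the translocon-associated SSR1 and SSR3 lower by 0.43 and 0.45 on the log2 scale (log2 changes -0.43, SE 0.04, and -0.45, SE 0.04) and SEC63 by 0.34 (log2 change -0.34, SE 0.05). Leaving out 1 library at a time left 14 to 16 ER genes and 8 to 12 Golgi genes lower.

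Targets of the integrated stress response, which amino acid shortage and ER stress usually raise through ATF4, were lower or not called: 15 of 25 fell and 0 rose (median -0.41). SLC7A1, an amino acid transporter, stood at 130, 145 and 172 CPM with ASO-1570 against 293, 306 and 318 CPM with the control (log2 change -1.04, SE 0.11). XPOT fell by 0.81 (SE 0.10), the serine synthesis enzyme PSAT1 by 0.70 (SE 0.12) and MTHFD2 by 0.62 (SE 0.11). The count was 9 without ASO-1570 replicate 1, 10 without ASO-1570 replicate 2, 10 without control replicate 2 and 9 without control replicate 3, and 2 rose without ASO-1570 replicate 3. Cytosolic heat shock genes gave 5 falling of 15 and 0 rising, with HSPA8 lower by 0.28 (log2 change -0.28, SE 0.05), HSPA4 by 0.27 (log2 change -0.27, SE 0.04), HSPH1 by 0.26 (log2 change -0.26, SE 0.05) and the factor HSF1 by 0.22 (log2 change -0.22, SE 0.04).

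Hypoxia and glycolysis genes gave 14 falling and 1 rising of 27 (median -0.32). VEGFA, the vascular growth factor, stood at 135, 160 and 180 CPM in ASO-1570 libraries, against 231, 280 and 277 CPM in control libraries (log2 change -0.73, SE 0.10), and the collagen prolyl hydroxylase subunit P4HA1 fell by 0.87 (SE 0.12). PGAM1 fell by 0.45 (SE 0.05) and PFKFB3 by 0.55 (SE 0.10). The falling count was 9 without ASO-1570 replicate 1, without control replicate 2 or without control replicate 3. Sterol synthesis genes gave 8 falling of 24, among them the cholesterol carrier STARD4 (log2 change -0.62, SE 0.07), with HSD17B7 at -0.42 (SE 0.11) and FDFT1 at -0.26 (SE 0.07). That count was 1 without ASO-1570 replicate 1, 3 without ASO-1570 replicate 2, and 5, 3 and 4 without control replicates 1, 2 and 3.

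Matrix and MAPK genes were lower in part, and YAP and TEAD genes moved in both directions. Of 34 extracellular matrix and integrin genes 10 fell and 2 rose (1 without ASO-1570 replicate 1 or 2 or control replicate 1 or 2), and ITGB1, the beta 1 integrin chain, stood at 841, 901 and 1155 CPM with ASO-1570 against 2147, 2186 and 2162 CPM with the control (log2 change -1.16, SE 0.11, edgeR adjusted p = 3.62e-05). TNC fell by 0.83 (SE 0.10), ITGA6 by 0.60 (SE 0.08) and CCN2 by 0.53 (SE 0.07). YAP1 itself fell by 0.72 (SE 0.04) and its DNA-binding partner TEAD1 by 0.63 (SE 0.08), within a list of 20 YAP and TEAD genes of which 6 fell and 4 rose (median -0.05). In the fit of the 6 MDA-MB-231 libraries alone 6 of that list fell and 8 rose. Of 23 MAPK and immediate early genes 12 fell and 1 rose (median -0.31), and 0 rose without ASO-1570 replicate 1 or control replicate 1. DUSP6, a phosphatase that dampens ERK, had 48.7, 51.6 and 66.8 CPM with ASO-1570 against 119, 125 and 128 CPM with the control (log2 change -1.16, SE 0.12). ETV4 fell by 0.99 (SE 0.06), PHLDA1 by 0.49 (SE 0.04) and FOSL1 by 0.49 (SE 0.04).

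NF-kB and interferon genes stood apart from these, with more rising than falling members. Of 23 NF-kB and inflammatory genes 8 rose and 2 fell (median 0.79), among them NFKBIA, the inhibitor that NF-kB induces, at 98.6, 69.2 and 48.2 CPM in ASO-1570 libraries against 38, 35.3 and 39.3 CPM in control libraries (log2 change 0.94, SE 0.18, edgeR adjusted p = 0.00354). RELB, an NF-kB subunit, had 24.8, 20.2 and 13.2 CPM with ASO-1570 against 9.27, 9.82 and 11.2 CPM with the control (log2 change 0.94, SE 0.18), and TNFAIP2 had 127, 93.8 and 73.7 CPM against 50.0, 54.2 and 53.6 CPM (log2 change 0.90, SE 0.15). For all 3 genes replicate 3 was the lowest ASO-1570 library and still lay above every control. LIF fell by 0.75 (SE 0.14). The rising count was 4 without ASO-1570 replicate 1, 5 without replicate 2 and 15 without replicate 3, and 4, 4 and 5 without control replicates 1, 2 and 3. The median was 0.37 without ASO-1570 replicate 1, and the falling count was 1 with any library but that one left out.

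Of 36 interferon response genes 11 rose and 2 fell (median 0.13), a rising share to be read beside 10.1% over all genes. IFIT2, an antiviral effector, stood at 102, 104 and 94.5 CPM with ASO-1570 against 67.6, 64.2 and 61.1 CPM with the control (log2 change 0.64, SE 0.05, edgeR adjusted p = 2.15e-05). TRIM22 rose by 0.81 (SE 0.07) and STAT2, a transcription factor of the interferon response, by 0.39 (SE 0.06), while the RNA sensor RIGI fell by 0.25 (SE 0.04). The rising count was 9 to 10 and the falling count 1 to 2 with any 1 library left out, and the median was 0.07 without control replicate 1.

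Other lists were mixed, and several had shares near the 10.1% rising and 13.2% falling over all genes. Of 20 p53 targets 4 rose and 6 fell, with CCNG1 at 164, 159 and 134 CPM in ASO-1570 libraries against 74.6, 72.7 and 74.0 CPM in control libraries (log2 change 1.05, SE 0.07) and MDM2, the p53 ubiquitin ligase, lower (log2 change -0.52, SE 0.08). ZMAT3 (log2 change -0.50, SE 0.06) and TNFRSF10B (log2 change -0.26, SE 0.04) fell as well. Of 22 apoptosis regulators 4 rose and 1 fell, among them XIAP at 0.18 (SE 0.04), BAK1 at 0.19 (SE 0.06) and BCL2L1 at -0.28 (SE 0.06). That rising count was 1 without ASO-1570 replicate 2 or control replicate 2 and 2 without ASO-1570 replicate 1 or control replicate 3, and the falling count was 2 without ASO-1570 replicate 1 or 3. Of 20 TGF-beta genes 5 rose and 4 fell: the ligand TGFB2 rose by 0.78 (SE 0.05), while its receptor TGFBR1 fell by 0.43 (SE 0.05) and SMAD2 by 0.29 (SE 0.04). Without ASO-1570 replicate 2 the rising count was 3. Of 17 IL6 family genes 4 rose and 3 fell, with LIFR higher (log2 change 0.55, SE 0.06), STAT3 higher (log2 change 0.28, SE 0.05), and IL11 and LIF among those lower.

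Genes of RNA processing moved little. Of 14 SR protein genes 1 rose and 4 fell: SRSF5 rose by 0.27 (SE 0.06), SRSF7 fell by 0.24 (SE 0.04), SREK1 by 0.23 (SE 0.07) and SRSF1 by 0.16 (SE 0.05). The falling count was 1 without ASO-1570 replicates 1 or 2 or control replicates 1 or 2, and 2 without ASO-1570 replicate 3. Of 21 hnRNP genes 9 fell and 0 rose, with HNRNPDL lower by 0.35 (log2 change -0.35, SE 0.05), HNRNPA0 at -0.25 (SE 0.04), HNRNPA1 at -0.24 (SE 0.04) and HNRNPUL1 at -0.19 (SE 0.04). Of 16 nonsense-mediated decay factors 2 rose and 5 fell, the kinase cofactor SMG9 rising by 0.54 (SE 0.08) and RBM8A (log2 change -0.39, SE 0.05), CASC3 (log2 change -0.35, SE 0.04) and RNPS1 (log2 change -0.22, SE 0.04) falling, and 1 rose with any library but ASO-1570 replicate 3 left out. Of 15 snoRNA host genes, which carry small nucleolar RNAs in their introns, 5 rose and 4 fell, among them SNHG32 (0.45, SE 0.06), SNHG6 (0.32, SE 0.05), SNHG5 (-0.35, SE 0.05) and SNHG16 (-0.50, SE 0.08). The rising count of host genes was 3 without ASO-1570 replicate 1 or 2 or control replicate 1 or 2.

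Of 48 cytosolic ribosomal protein genes 10 fell and 0 rose, a share of falling genes to be read beside 13.2% over all genes: RPS6 fell by 0.34 (SE 0.04), RPL12 by 0.33 (SE 0.05), RPS9 by 0.26 (SE 0.06) and RPL22 by 0.18 (SE 0.04). The falling count was 5 without ASO-1570 replicate 1, 4 without ASO-1570 replicate 2, 4 without control replicate 2 and 6 without control replicate 3. Of 39 oxidative phosphorylation genes 7 rose and 1 fell (median 0.04), with NDUFS5 at 0.22 (SE 0.04), COX7B at 0.26 (SE 0.05), SDHA at 0.16 (SE 0.05) and ATP5PD at -0.17 (SE 0.05). The rising count was 2 without ASO-1570 replicate 1 or 2 or control replicate 1 or 3, and 4 without control replicate 2, and 0 fell in those 5 fits. Autophagy and lysosome genes split evenly, 4 rising and 4 falling of 23, with HEXA at 0.29 (SE 0.05), LAMP2 at -0.27 (SE 0.05), BECN1 at -0.30 (SE 0.06) and ATG5 at -0.19 (SE 0.04). The rising count was 1 to 2 with any library but ASO-1570 replicate 3 left out. Of 5 Pumilio and NORAD genes tested, NORAD and PUM2 (log2 change -0.20, SE 0.04) fell. Of 9 genes taken as TRA2B exon targets 2 rose and 3 fell, TRA2A among those rising and CHEK1 (log2 change -0.26, SE 0.04), NASP (log2 change -0.28, SE 0.05) and CD44 (log2 change -0.22, SE 0.05) falling. With any 1 library left out 1 of them rose.

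Cell type markers moved in both directions. Of 11 epithelial markers 3 rose and 1 fell: CDH1, E-cadherin, stood at 7.97, 9.46 and 8.46 CPM with ASO-1570 against 4.59, 4.42 and 3.80 CPM with the control (log2 change 1.01, SE 0.18), KRT7 rose by 0.28 (SE 0.07) and KRT8 by 0.23 (SE 0.07), and ESRP1 fell while under 1 CPM in all 6 libraries. Of the epithelial markers 1 rose without ASO-1570 replicate 2 or control replicate 1, and 0 fell with any 1 library left out. Of 12 mesenchymal markers 1 rose and 6 fell, with CAV1 higher (log2 change 0.41, SE 0.05) and ZEB1, a repressor of epithelial genes, lower (log2 change -0.35, SE 0.06), as was PLAU (log2 change -0.48, SE 0.11). The mesenchymal falling count was 3 without ASO-1570 replicate 1 or 2 or control replicate 2 or 3. LUM, lumican, a matrix proteoglycan listed as a fibroblast marker, stood at 17.2, 17.5 and 16 CPM with ASO-1570 against 2.18, 1.94 and 1.59 CPM with the control (log2 change 3.15, SE 0.13, edgeR adjusted p = 5.32e-07). Fibroblast markers summed to 454 to 484 CPM with ASO-1570 and 384 to 406 CPM with the control, with 6 of 13 under 1 CPM in all 6 libraries. Glial markers gave 1 falling of 8 tested, GFAP at 1.00 to 1.49 CPM with ASO-1570 against 2.32 to 3.12 CPM with the control. Immune markers gave 1 falling of 7 and endothelial markers 1 rising and 2 falling of 6, with 5 of 12 and 2 of 9 listed at 0 in all 6 libraries. With 1 library left out the falling count was 0 to 2 for glial and for immune markers and 0 to 1 for endothelial markers. The part of other cells in these values was not tested.

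**Figure D3:**
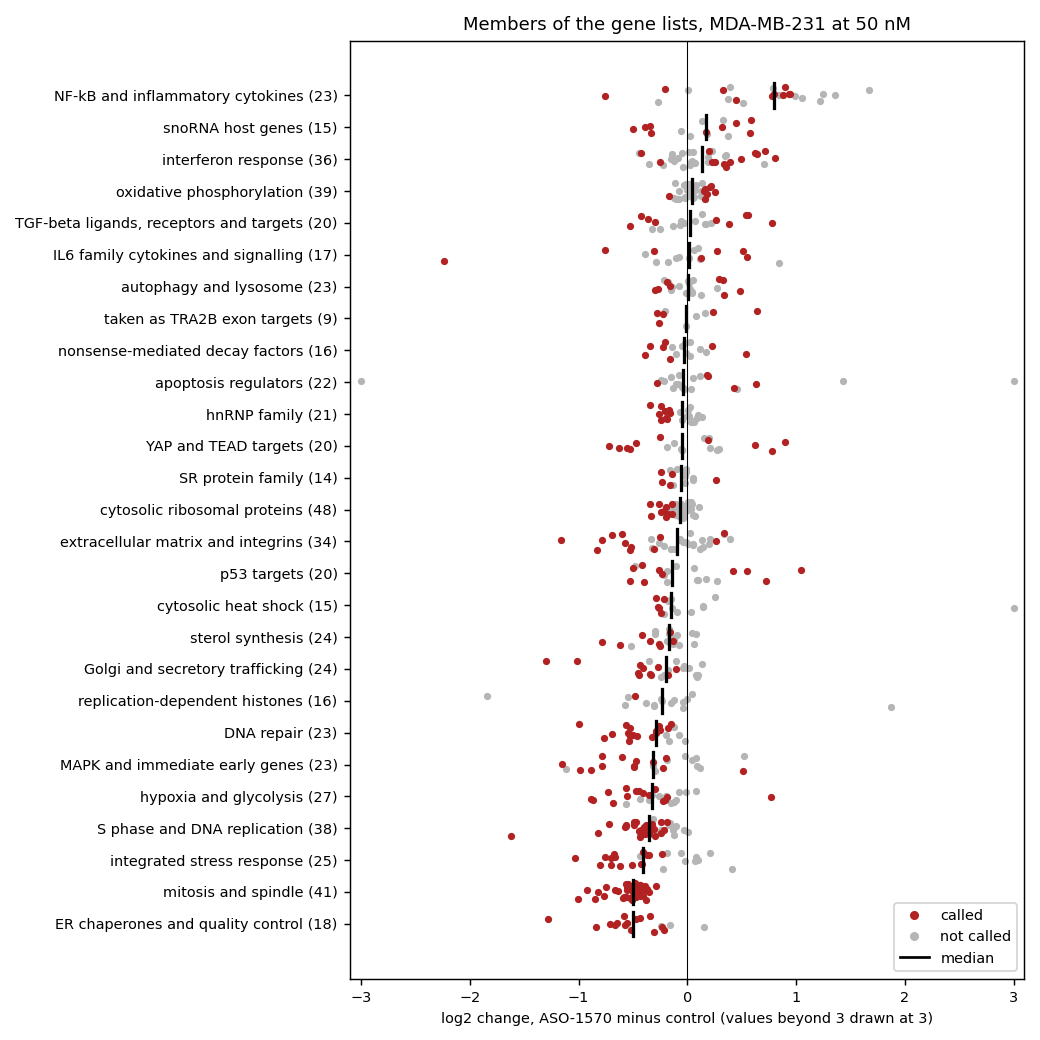
Log2 change (ASO-1570 minus control, MDA-MB-231 at 50 nM) of each tested member of 27 gene lists, with the number of members in brackets, called members in red and a bar at the median of each list. The lists run from NF-kB genes at the top, with a median of 0.79, to ER chaperones and mitosis at the bottom, with medians of -0.50.

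The same dose in U87MG cells served to ask where the MDA-MB-231 response differs. In U87MG 54.6% of genes were called in the same fit, 6699 rising (27.9%) and 6399 falling (26.7%), and the 2 effects differed for 6760 genes (28.2%), 3435 with the MDA-MB-231 value higher (14.3%) and 3325 with it lower (13.9%). TRA2B fell less in MDA-MB-231 cells than in U87MG cells (log2 changes -0.76 and -1.13, difference 0.36, SE 0.10, edgeR adjusted p = 0.0176), and TRA2A rose less (0.64 and 1.34, difference -0.70, SE 0.07, edgeR adjusted p = 0.000141). Mitotic genes fell less as well: for 39 of 41 the difference passed the test in that direction, and their median was -0.50 in MDA-MB-231 and -1.12 in U87MG. The same held for 22 of 38 S phase genes and 15 of 23 repair genes.

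For 13 of 23 NF-kB genes too the MDA-MB-231 effect was the higher, and for TNFAIP2 the log2 changes were 0.90 in MDA-MB-231 and -1.19 in U87MG (difference 2.09, SE 0.21, edgeR adjusted p = 0.000147). For 13 of 20 p53 targets the MDA-MB-231 effect was the lower, MDM2 having log2 changes of -0.52 and 0.74. Heat shock genes were lower relative to U87MG for 9 of 15 and MAPK genes for 12 of 23. HSPA5 fell in MDA-MB-231 and had a log2 change of 0.05 in U87MG (difference -0.76, SE 0.11, edgeR adjusted p = 0.000808). Of the 6 genes with the smallest p for this difference among those called, SLC20A1, a phosphate transporter (log2 changes -0.22 and 0.82), TNFRSF10D, a decoy receptor (-0.58 and 0.92), and MYH10, a nonmuscle myosin (-0.47 and 1.67), were lower in MDA-MB-231 and higher in U87MG. PAWR (0.24 and -0.71), ALDH1A3-AS1 (0.97 and -1.81) and MRAS (0.78 and -0.34) had the opposite signs, ALDH1A3-AS1 with overlap of ALDH1A3 on the other strand. MYH10 lay near 10 CPM or lower in U87MG libraries, at 7.87 CPM with ASO-1570 and 2.48 CPM with the control.

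Separate experiments on MDA-MB-231 cells gave values side by side, with no test between experiments. Of 2333 genes that rose at 50 nM and were tested at 200 nM, 1378 also rose there (59.1% of the 50 nM genes and 47.7% of the 2890 at 200 nM), and of 3141 that fell 2432 also fell (77.4% and 69.2% of 3513). Only 5 and 2 genes moved in opposite directions. At 200 nM 11.7% of tested genes rose and 13.6% fell. Log2 changes at 50 nM and 200 nM were -2.23 and -2.23 for IL11, -1.68 and -2.12 for NORAD, 1.68 and 1.53 for OXTR, and 3.15 and 3.35 for LUM. With TRA2B siRNA TRA2B fell by 3.11 on the log2 scale, and the same 4 genes had log2 changes of -0.76, -0.03, -0.04 and 0.23. Of the genes called at 50 nM and tested in the siRNA experiment, 146 of 2292 rising genes (6.37%) and 304 of 3154 falling genes (9.64%) were called there in the same direction, where 3.65% of all tested genes rose and 3.6% fell, and 77 and 201 were called in the opposite direction. Of the 41 mitotic genes 40 fell at 200 nM, and with siRNA 3 rose and 1 fell.

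Splicing was measured for 139012 events, of which 54619 had values in all 6 libraries and varied by at least 0.05. Calls needed a limma adjusted p under 0.05 together with a change of 0.10 or more in mean PSI. With ASO-1570 41 events were higher (0.0751% of those tested) and 65 lower (0.119%), in 90 genes, and 84 of the 106 were cassette exons. There were 10 mutually exclusive exon pairs, 7 alternative 5′ and 4 alternative 3′ splice sites, and 1 retained intron. Cassette exons were also most of the events tested, 34042 of 54619. The called share was 0.247% of tested cassette exons and 0.264% of alternative 5′ splice sites. It was 0.107% of alternative 3′ splice sites, 0.0849% of mutually exclusive pairs and 0.0417% of retained introns. The number called depended strongly on the fit: 1022 with the 12 libraries of both lines (1.94%, with 0.701% higher and 1.23% lower), of which 87 were among the 106, and 494 without ASO-1570 replicate 3, but 21 and 46 without ASO-1570 replicates 1 and 2, and 31, 34 and 46 without control replicates 1, 2 and 3. The files give no read numbers behind PSI, and the depth per event is therefore unknown.

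The largest called differences were exons fully included in all 3 control libraries and nearly absent with ASO-1570. An exon of 187 bases in RPS27L, a ribosomal protein paralog, had a PSI of 0.010, 0.042 and 0.038 in ASO-1570 libraries, against 1 in each control library (difference -0.970, SE 0.0249, limma adjusted p = 0.000413). A 36-base exon of FAT1, a giant protocadherin, stood at 0.050, 0.047 and 0.023 against 1 in each control library, and a 97-base exon of DCK, deoxycytidine kinase, at 0.067, 0.068 and 0.085 against 1 in each control library. PPP2R2A, a regulatory subunit of protein phosphatase 2A, had an exon at 0.025, 0.031 and 0.089 with ASO-1570 against 1 in each control library. At 200 nM these 4 exons had means of 0.0287, 0.0323, 0.048 and 0.0477 with ASO-1570, against 0.956, 1, 1 and 1 with the control, in the order RPS27L, FAT1, DCK, PPP2R2A. In U87MG at 50 nM they had means of 0.0123, 0.094, 0.022 and 0.104 with ASO-1570 and 0.933, 1, 1 and 1 with the control. Of these host genes PPP2R2A fell (log2 change -0.29, edgeR adjusted p = 0.000362), and RPS27L, FAT1 and DCK were not called (log2 changes 0.12, -0.06 and -0.01). These 4 exons stayed called with any 1 of the 6 libraries left out.

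The other exons of the 8 largest lower differences did not have the same pattern elsewhere. CALCRL went with a host level of 0.411 CPM in ASO-1570 and 0.252 CPM in control libraries, and its exon, at 0 in each ASO-1570 library against 1 in each control library, averaged 0.796 with ASO-1570 and 0.487 with the control in U87MG. SLC66A2 stood at 0, 0 and 0.096 against 1 in each control library, but at 0.275 ± 0.175 with ASO-1570 and 0.351 ± 0.0348 with the control at 200 nM (SD, 3 libraries each). MAP2K3 stood at 0, 0.132 and 0 against 1 in each control library, and averaged 0.894 with ASO-1570 and 0.619 with the control in U87MG. SHISA5, at 0.103, 0 and 0.138 against 1 in each control library, averaged 0.206 with ASO-1570 and 0.315 with the control at 200 nM, and 0.872 and 0.0463 in U87MG.

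Among exons included more with ASO-1570, CNN3, which encodes an actin-binding calponin, had a 138-base exon at 0.997, 0.999 and 0.999 in ASO-1570 libraries, against 0.289, 0.263 and 0.329 in control libraries (difference 0.705, SE 0.0336, limma adjusted p = 0.00469). The libraries of each group nearly coincided, and CNN3 mRNA was not called (528 CPM in both groups, log2 change 0.00). FCF1, a factor of ribosomal RNA processing, had a 136-base exon at 1, 0.948 and 1 with ASO-1570 against 0.139, 0.257 and 0.290 with the control, and its mRNA fell to 41.5 CPM with ASO-1570, against 97.3 CPM with the control (log2 change -1.23, edgeR adjusted p = 4.94e-06). An exon of GARNL3 stood at 1, 0.927 and 1 against 0.122, 0.273 and 0.167 in control libraries, and one of TMEM33 at 0.619, 0.744 and 0.823 against 0.127, 0 and 0.104. With 1 library left out CNN3 stayed called. GARNL3 was not called without ASO-1570 replicate 1 or control replicate 1 or 3, FCF1 without ASO-1570 replicate 1 or control replicate 2, and TMEM33 without any library but ASO-1570 replicate 3. At 200 nM CNN3, FCF1, GARNL3 and TMEM33 averaged 0.998, 0.944, 0.959 and 0.542 with ASO-1570, against 0.242, 0.0963, 0.206 and 0.261 with the control.

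Another 3 of the 8 largest higher differences were in weakly expressed hosts or were not seen at 200 nM. UTS2B had a host level of 0.288 CPM with ASO-1570 and 0.276 CPM with the control, and PSI means of 0.596 and 0.609 at 200 nM. PINX1 had 0.485 with ASO-1570 and 0.463 with the control at 200 nM, against 1 in each ASO-1570 library and 0.456, 0.218 and 0.218 in control libraries at 50 nM. AC009065.4 had 0.866 and 0.837 at 200 nM, with ASO-1570 and the control.

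**Figure D4:**
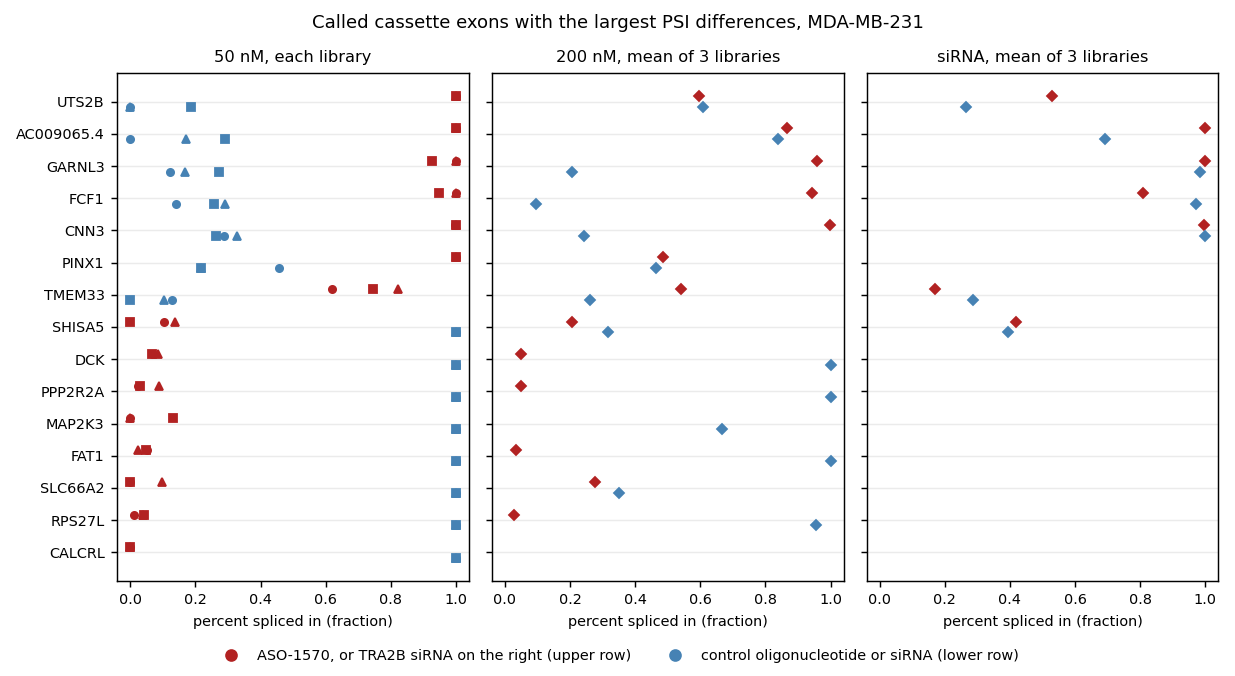
PSI of 7 of the 8 called cassette exons with the largest higher and the 8 with the largest lower differences in MDA-MB-231, 1 per gene: each library at 50 nM (left), group means at 200 nM (centre) and in the siRNA experiment (right), with the ASO-1570 or TRA2B siRNA row above the control row. CNN3, FCF1 and GARNL3 are near 1 with both ASO-1570 doses and lower with both control oligonucleotide doses. CNN3 and GARNL3 are near 1 in both siRNA groups, while the TMEM33 means of both siRNA groups lie below those of both ASO-1570 doses. RPS27L, FAT1, PPP2R2A and DCK are near 0 with both ASO-1570 doses and have no siRNA values.

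The siRNA experiment gave an outside level for these exons. CNN3 averaged 0.996 with TRA2B siRNA and 0.998 with control siRNA, GARNL3 1 and 0.985, and FCF1 0.808 and 0.973. For these 3 exons both siRNA groups lay near the ASO-1570 libraries and away from the control oligonucleotide libraries. TMEM33 went the other way, with means of 0.1697 for TRA2B siRNA and 0.287 for control siRNA (SD 0.185 and 0.322). Both of these means were nearer to the control oligonucleotide mean than to the ASO-1570 mean. Counted after the values were seen, over called events with siRNA values, the control siRNA mean was nearer to the ASO-1570 mean for 20 of 33 higher events and for 3 of 25 lower events. In the 12-library fit it was nearer to ASO-1570 for 123 of 327 higher and 48 of 515 lower events. The 2 experiments differ in transfected agent and dose, so what sets them apart cannot be told apart from these values. Between TRA2B siRNA and control siRNA, 6 of the 33 higher events differed by at least 0.10 in the same direction as with ASO-1570 and 6 in the opposite one, and 4 and 5 of the 25 lower events did.

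At 200 nM the called events mostly had the same direction. Of 38 higher events with values there, 36 were higher and 31 by at least 0.10, and of 57 lower events 54 were lower and 49 by at least 0.10. The median difference was 0.512 at 50 nM and 0.354 at 200 nM for the higher events, and for the lower events the median sizes were 0.532 and 0.479. In U87MG at 50 nM 31 of 37 higher and 49 of 62 lower events moved by at least 0.10 in the same direction. The shares of all tested events that moved as far at 200 nM, in U87MG or with siRNA are not given here. In MDA-MB-231 at 50 nM itself 8.57% of all tested cassette exons were higher and 14.1% lower by at least 0.10.

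**Figure D5:**
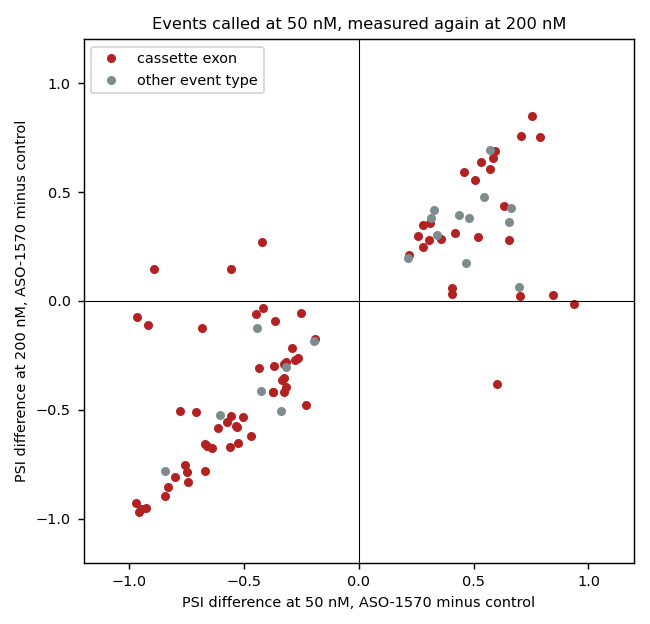
PSI difference (ASO-1570 minus control) of events called in MDA-MB-231 at 50 nM (horizontal) and of the same events in the separate 200 nM experiment (vertical), cassette exons in red and other event types in grey. Most points lie at the lower left and upper right: 54 of 57 lower and 36 of 38 higher events keep their direction.

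Words of 8 bases were counted in the called cassette exons on the transcript strand, a description made after the values were seen. The word held by most higher exons was GAAGCAAA, in 8 of 26 (30.8%), against 0.816% of the 23898 tested cassette exons with an annotated sequence and 0 of 57 lower exons. Its extension GAAGCAAATG was in 7 of the 26 (26.9%, from 6 genes) and in 0.167% of all. Exons of 5 of these genes are shown, with GAAGCAAATG in capitals, each from GRCh38 and 5′ to 3′: GARNL3 (chr9:127353846-127353944, plus strand), CNN3 (chr1:94902121-94902258, minus), PARP11 (chr12:3826158-3826233, minus), ARHGAP29 (chr1:94201720-94201857, minus) and YY1AP1 (chr1:155680416-155680456, minus).

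GARNL3: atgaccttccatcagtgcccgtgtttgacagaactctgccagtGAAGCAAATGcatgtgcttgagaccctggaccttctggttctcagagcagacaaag
CNN3: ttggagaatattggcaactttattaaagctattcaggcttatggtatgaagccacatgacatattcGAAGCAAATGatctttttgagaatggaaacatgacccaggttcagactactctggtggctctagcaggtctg
PARP11: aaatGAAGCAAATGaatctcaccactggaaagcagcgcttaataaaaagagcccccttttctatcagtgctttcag
ARHGAP29: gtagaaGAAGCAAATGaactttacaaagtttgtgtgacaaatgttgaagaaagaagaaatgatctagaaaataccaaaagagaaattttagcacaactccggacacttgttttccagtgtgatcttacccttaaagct
YY1AP1: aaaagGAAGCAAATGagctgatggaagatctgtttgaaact

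The word sits at different places in these exons, near the start in PARP11, ARHGAP29 and YY1AP1 and in the middle in GARNL3 and CNN3. PARP11 stood at 1 in each ASO-1570 library against 0.332, 0.544 and 0.405 in control libraries, and ARHGAP29 at 1 in each ASO-1570 library against 0.444, 0.414 and 0.553. The 41-base YY1AP1 exon stood at 0.931, 0.954 and 0.932 against 0.474, 0.427 and 0.538 in control libraries. In the siRNA experiment ARHGAP29 averaged 1 with TRA2B siRNA and 0.999 with control siRNA, and YY1AP1 0.939 and 0.956, so that here, as for CNN3 and GARNL3, both siRNA groups lay at the ASO-1570 level and the control oligonucleotide libraries stood apart. Which oligonucleotide moves these exons was not tested. Of all 40 tested exons that hold GAAGCAAATG, called or not, 19 (47.5%) were higher by at least 0.10 with ASO-1570 and 2 (5%) lower, against 8.57% and 14.1% of all tested cassette exons. The 40 include the called exons from which the word was taken, so part of this excess is built in. The reverse complement of GAAGCAAATG was in 0 of the 26 and 0.0167% of all. In the 12-library fit GAAGCAAATG was in 19 of 219 higher exons (8.68%) and 2 of 508 lower exons (0.394%).

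Among lower exons of the 6-library fit no word was in more than 5 of 57 (8.77%), and the 2 words at that count were in 2.74% and 2.95% of all tested exons. In the 12-library fit the most frequent word of lower exons was AGAGGAAA, in 37 of 508 (7.28%) against 1.53% of all tested exons and 1 of 219 higher exons, and in the 6-library fit AGAGGAAA was in 4 of 57 (7.02%). Of 366 tested exons with AGAGGAAA 111 (30.3%) were lower by at least 0.10 and 9 (2.46%) higher, against 14.1% and 8.57% of all tested cassette exons. The 366 include the called exons from which the word was picked, so part of this excess is built in. GAAGAA, a word that TRA2 proteins are known to bind, was in 14.8% of lower and 10.5% of higher exons of the 12-library fit and in 11.5% of all, and in 7.02% and 11.5% of the lower and higher exons of the 6-library fit. Exons of 2 genes are shown with AGAGGAAA in capitals, ZNF440 (chr19:11830274-11830409, plus) and BRCC3 (chrX:155099315-155099389, plus).

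ZNF440: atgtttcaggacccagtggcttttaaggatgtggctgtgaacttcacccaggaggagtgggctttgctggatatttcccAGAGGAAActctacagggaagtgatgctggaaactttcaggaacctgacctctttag
BRCC3: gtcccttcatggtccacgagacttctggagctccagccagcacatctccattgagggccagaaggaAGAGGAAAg

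ZNF440 stood at 0.218, 0.242 and 0.392 in ASO-1570 libraries against 0.905, 0.934 and 0.939 in control libraries, and BRCC3 at 0.325, 0.230 and 0.360 against 0.914, 0.859 and 0.864. A shared word is a description of these exons and says nothing of what binds them.

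Of the other event types, an alternative 3′ splice site of CDC16, a subunit of the anaphase-promoting complex, had a PSI of 0.496, 0.441 and 0.612 with ASO-1570 against 0.039, 0.031 and 0.047 with the control, and averaged 0.427 and 0.0477 at 200 nM. One of RPN1 stood at 0 in each ASO-1570 library against 0.493, 0.493 and 0.351, and at 0.292 with ASO-1570 and 0.418 with the control at 200 nM. Alternative 5′ splice sites of OLMALINC (0.14, 0.327 and 0 against 1 in each control library) and FCF1 (1, 0.811 and 1 against 0.277, 0.292 and 0.28) differed most of their type. A mutually exclusive pair of ELMOD3 stood at 0.891, 0.927 and 0.842 against 0.204, 0.278 and 0.191, and one of HDAC10 at 0.884, 0.875 and 1 against 0.137, 0.203 and 0.323, with 0.535 and 0.472 at 200 nM. The 1 called retained intron, in KIAA1217, stood at 0.837, 0.834 and 0.777 with ASO-1570 against 0.489, 0.479 and 0.503 with the control, and at 0.796 and 0.378 at 200 nM. Of these events ELMOD3 was called with 3 of the 6 libraries left out in turn (not without ASO-1570 replicate 1 or control replicate 1 or 3), and the others with 1 or 2 of the 6. A TRAF5 intron, not called (limma adjusted p = 0.0763), stood at 0.053, 0.071 and 0.190 against 1, 1 and 0.652.

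In the 6-library fit 0.194% of all tested events were called. No event of the 46 listed SR, hnRNP, TRA2 and TRA2B target genes was among these 106, out of 247 tested, which is near that share. The 12-library fit called 7 of them (2.89% of those with values in that fit, against 1.94% of all events in it). Of these, 4 were lower: a 63-base exon of HIPK3 (mean PSI 0.485 with ASO-1570 and 1 with the control), a 129-base exon of HNRNPK (0.810 and 0.999), a 301-base exon of TRA2A (0.824 and 0.950) and a 36-base exon of HNRNPA2B1 (0.220 and 0.339). The 3 higher were mutually exclusive exon pairs of TRA2A (0.187 and 0.0663) and SMN2 (0.614 and 0.420) and a 102-base exon of CD44 (0.429 and 0.208). The 301-base TRA2A exon, chr7:23522132-23522432, lies within the 312-base one given earlier, which had a control mean of 0.201. Neither PSI can therefore be read as an inclusion level over all TRA2A transcripts.

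The mRNA of the genes that host called exons moved in both directions. Of 49 tested host genes of lower cassette exons 9 rose (18.4%) and 9 fell (18.4%), and of 24 hosts of higher ones 5 rose (20.8%) and 5 fell (20.8%), beside 10.1% and 13.2% of all genes. In the 12-library fit 68 of 408 hosts of lower exons rose (16.7%) and 104 fell (25.5%), and of 185 hosts of higher ones 31 rose (16.8%) and 36 fell (19.5%). Exon lengths were multiples of 3 for 36.8% of lower and 59.3% of higher exons, against 40.5% of all tested cassette exons, and for 49.0% of lower and 50.0% of higher exons of the 12-library fit. Among hosts of lower exons whose length is not a multiple of 3, 5 rose and 6 fell of 30.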

How the data were processed

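Per the labels, mRNA libraries came from a kit that marks strand, with paired reads of 151 bases. The deposited gene table holds raw counts per Ensembl gene and library, not scaled, made by the authors with FastQC, MultiQC, Trimmomatic, STAR and StringTie on GRCh38 (hg38), per the submitters' processing notes; versions, counting options and the strand setting are not given in the sources used here. The deposited splicing table holds PSI as a fraction from 0 to 1, from rMATS per the file names, with no read numbers.

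Counts were tested with edgeR 4.0.16 (filterByExpr, TMM, quasi-likelihood fit over the 12 libraries of both lines at 50 nM, no replicate term), with Benjamini-Hochberg adjustment over all genes. SEs came from the F statistic. PSI was tested with limma 3.58.1 (trend) over 6 libraries. DESeq2 1.42.0 was an alternative. R was 4.3.3. Symbols matched 60340 of 60668 identifiers. Sequences came from GENCODE 29 transcripts (GRCh38).

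On simulated counts of 22652 genes for this comparison, 74% and 88% of genes with log2 changes of -1 and 1 were recovered, and 32% and 44% at -0.5 and 0.5. On simulated PSI of 42893 events, with noise drawn as normal, shifts were planted only in events with an SD within groups below 0.05. All shifts of 0.7 were recovered, 78% at -0.25 and 48% at 0.25, and recovery in noisier events is not known. Of 365 calls 39 (10.7%) were false. That share depends on how many shifts were planted and does not carry over to the real calls, of which some may be chance.

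Members, lists and tests were chosen with earlier results of these data known. Named genes were TRA2B and TRA2A, the 12 largest changes per direction (mean log2 CPM of at least 3, no overlap), up to 4 called members per list with the smallest p, and 6 genes by line difference. Named events were the poison and TRA2A exons, 8 cassette exons per direction and 2 per other type. Exons shown for shared words were chosen after their values were seen. Replicates within a group differed beyond sampling noise and were kept apart. The 200 nM and siRNA tables were fitted separately. Some items are not reported here.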

Additional observations from a re-analysis of the deposited data

Results flagged for a closer look

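With 3 libraries a group, no group was large enough to look for a single library standing apart. Each result here was set aside because the effect of 50 nM ASO-1570 in MDA-MB-231 differed from that in U87MG by a test of the difference itself (edgeR adjusted p below 0.05 for genes, limma for events in the 12-library fit). The value after each name is the MDA-MB-231 log2 change minus the U87MG log2 change.

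Among genes that fell in MDA-MB-231, the effect was higher than in U87MG for TRA2B (0.36), GLG1 (0.75), FOXM1 (0.32), MAD2L1 (0.46), AURKB (0.42), ECT2 (0.48), CDC6 (0.35), FANCI (0.44), RAD54L (0.66), BLM (0.50), HSPA4 (0.39), XPOT (0.51), SREK1 (0.56), HNRNPDL (0.37), SMAD2 (0.31), BECN1 (0.56), NASP (0.34) and ZEB1 (0.28). It was lower for the falling genes IL11 (-0.77), IGFBP1 (-1.85), DMBT1 (-1.10), TDRP (-0.52), HSPA5 (-0.76), ZMAT3 (-0.30), MDM2 (-1.26), TNFRSF10B (-0.28), RIGI (-0.28), PGAM1 (-0.44), VEGFA (-0.46), HSD17B7 (-0.55), TNC (-0.41), CCN2 (-1.32), RBM8A (-0.29), BCL2L1 (-0.83), ETV4 (-0.38), PHLDA1 (-0.67), DUSP6 (-0.73), LAMP2 (-0.44), SEC63 (-0.49), ESAM (-4.05), SLC20A1 (-1.04), TNFRSF10D (-1.50) and MYH10 (-2.14).

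Among genes that rose in MDA-MB-231, the effect was higher than in U87MG for VGLL3 (0.68), MUC1 (1.03), GPRC5B (0.84), TNFAIP2 (2.09), RELB (1.11), NFKBIA (1.10), TRIM22 (0.35), SDHA (0.28), XIAP (0.45), TGFB2 (0.35), LUM (1.75), PAWR (0.95), ALDH1A3-AS1 (2.78) and MRAS (1.12). It was lower for TRA2A (-0.70), IFIT2 (-0.65), SNHG32 (-0.24), SNHG6 (-0.31), SMG9 (-0.68), STAT3 (-0.38), KRT7 (-0.42), KRT8 (-0.48) and CAV1 (-0.40).

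For splicing, the PSI difference in MDA-MB-231 minus that in U87MG was lower for cassette exons of CALCRL (-1.31), SLC66A2 (-1.04), MAP2K3 (-1.23) and SHISA5 (-1.75) and for the retained intron of KIAA1217 (-0.28). What sets the lines apart was not tested.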

How the results depend on the processing

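TRA2B mRNA kept its call and direction, and the numbers of falling genes and of genes that differed between lines stayed within 1.5 times, under DESeq2, other size factors, no low-count filter and with any library left out, as did TRA2B and the falling genes in the 6 MDA-MB-231 libraries alone. TRA2B ranged from -0.87 to -0.71 on the log2 scale with 1 library left out. Called genes numbered 903 with a 2-fold minimum, a limit added after seeing the data, and 3696 to 5808 with 1 library left out, and rising genes 1476 to 2601.

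Called events, 106 (41 higher, 65 lower), numbered 447 (145, 302) on the logit scale, 61 (21, 40) with a range of at least 0.10, 41 (14, 27) with no range filter, 64 (21, 43) with hosts of at least 5 CPM and 1022 (370, 652) with 12 libraries. With 1 library left out they ranged from 21 to 494 (higher 4 to 102, lower 17 to 392). Replicate numbers did not pair the libraries (correlations of deviations -0.01, -0.02 and 0.04). With the replicate block limma called 0 events (0 higher, 0 lower), the smallest adjusted p being 0.0967, and 5159 had an unadjusted p below 0.05. The block left TRA2B at -0.77 and the poison exon difference at 0.212 (adjusted p = 0.369), which was not called under any alternative; without 1 library it was 0.164 to 0.264. A block or a missing library leaves fewer residual degrees of freedom. The cause of these shifts was not tested.

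With 1 library left out SRSF1, SREK1, ATP5PD, SDHA, BAK1, KRT8 and GFAP lost their call in 4 or 5 of 6 fits, ESRP1 in 6, FDFT1 in 4, H4C3 in 3, XIAP and KRT7 in 2 and HSD17B7 in 1. Over all alternatives the named genes kept their call in 1500 instances and lost it in 94, and the 23 called among the named events in 165 and 96.

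No read numbers stand behind PSI, so its depth is unknown.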
